A study of Mus musculus with 6 samples.

Results

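The expression profile of mouse hair follicle (HF) cells was described from 2 of the 6 arrays of the series, with no contrast between groups. A gene belonged to the profile when at least 1 of its probes had a deposited detection p-value under 0.05 on both HF arrays, and its brightest such probe stood for it. By this rule 8410 of 19057 named genes were detected, a share of 44.1%, and they were ranked by the mean of the 2 HF intensities. All samples carry the strain label OG2, a mouse line known for a green fluorescent protein transgene under regulatory sequence of Pou5f1. The 2 HF samples are labelled as hair follicle of dorsal skin from adults of 2 months. The other 4 arrays hold 2 samples of germline stem cells obtained from hair follicle of dorsal skin (HFGSC, 4 months) and 2 of testis germline stem cells (GSC, 3 months). The labels used here give no treatment, sex, culture state or pooling, and do not say whether the 2 samples of a group came from separate animals or cultures, so the spread between them may be technical.

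A hair follicle is built mainly of keratinocytes, whose basal layer is recognised by the keratin pair Krt5 and Krt14 and by the transcription factor Trp63. Its upper bulge houses quiescent stem cells marked by Krt15, Cd34 and Lgr5, and its growing base makes the hair shaft from hair keratins and keratin-associated proteins. Around and below this epithelium lie mesenchymal cells: the dermal papilla, which signals to the epithelium, and the dermal sheath, which holds fibroblasts and smooth muscle. Follicles also contain melanocytes, nerve endings, vessels and immune cells, so lists of markers for each of these were read on the same arrays.

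On a bead array each probe gives a fluorescence intensity, printed here as deposited, in arbitrary units and with the background still in it. The median probe that was not detected read 127 on HF replicate 1 and 94.6 on HF replicate 2, and the lowest detected probe read 190.8 and 138.1. The brightest probe read 69579 on replicate 1 and 69130 on replicate 2, and 39 genes averaged over 60000, so the order among the brightest genes is not resolved. A probe's brightness depends on its sequence as well as on transcript abundance, so ranks describe the arrays and do not order transcripts by amount. The other limit concerns what was not detected. Psma1, a core subunit of the proteasome that every cell uses, read 107 and 80.2 and was detected on none of the 6 arrays, and the ribosomal protein gene Rpl17 was likewise detected on none. A gene listed as not detected is therefore a probe at background and not an absent transcript. At the other end, 12 of 1071 olfactory receptor genes (1.12%), which serve smell in the nose, passed the rule, and the brightest of the 12 averaged 311. Without HF replicate 1 that count was 24, and without HF replicate 2 it was 21.

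The HF arrays agreed closely across detected genes, with a correlation of log2 intensity of 0.945 and 83.1% of genes within 2-fold, given here as a description across genes. They did not differ evenly. Of the detected genes, 179 were over 4-fold brighter on replicate 1, against 2 that were over 4-fold brighter on replicate 2. Kpnb1, which carries cargo into the nucleus, read 2960 on replicate 1 and 236 on replicate 2. Caprin1, an RNA-binding protein of stress granules, read 4865 and 557. In the other direction Isg15, an interferon-induced ubiquitin-like protein, read 642 on replicate 1 and 2423 on replicate 2, and Selp, an adhesion molecule of platelets and endothelium, read 513 and 2148. After background correction and quantile normalization with neqc these counts were 106 and 22, so both array values are given for the genes described below and the cause was not tested.

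**Figure D1:**
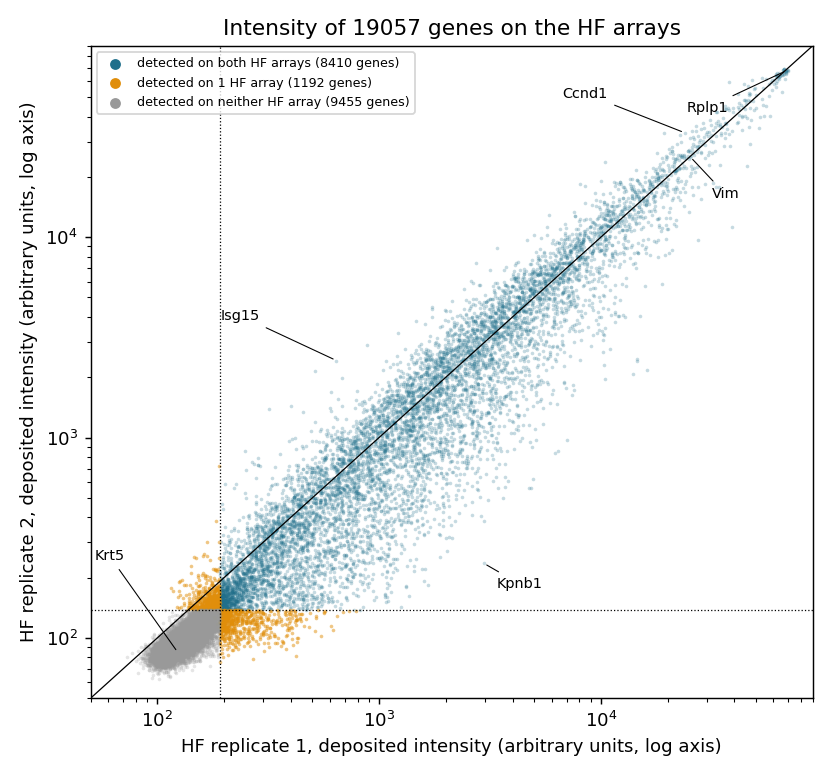
Each point is a named gene at its deposited intensity on HF replicate 1 (horizontal) and HF replicate 2 (vertical), both in arbitrary units on log axes, coloured by whether it was detected on both, 1 or neither HF array; the diagonal marks equal values and the dotted lines mark the lowest detected intensity of each array, 190.8 and 138.1. A branch of detected genes that includes Kpnb1 lies below the diagonal, Isg15 lies above it, and Krt5 lies within the cloud of genes detected on neither array.

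The brightest genes were those of protein synthesis. Cytosolic ribosomal protein genes filled 31 of the 100 highest ranks. Of 61 named ones 51 were detected (83.6%), against 44.1% of all genes, at a median rank of 58. Rplp1 of the ribosomal stalk read 69270 on replicate 1 and 68085 on replicate 2, and Rps29 of the small subunit read 69579 and 67472. These probes sit at the ceiling of the arrays, and many ribosomal protein genes have near-identical processed copies, so a single transcript source cannot be assigned to them. Elongation and initiation factors followed. The elongation factor Eef1a1 read 68348 and 65234, and Eif4a1, the helicase that opens messenger RNA for the ribosome, read 49957 and 44044. The RNA-binding protein Ybx1 read 66664 and 68877.

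Core histones and tubulins shared this top group. H2ac10, an H2A histone gene, ranked first with 69528 and 68260, and 5 histone genes were among the 100 brightest. All 5 were H2A genes, a family with near-identical members, so their probes may read more than 1 gene. Of 78 named histone genes 50 were detected (64.1%), against 44.1% of all genes. The alpha-tubulin Tuba1b read 67040 on replicate 1 and 69130 on replicate 2, and the beta-tubulin Tubb5 read 61951 and 66009. Both build the microtubules of most dividing cells, whereas the neuronal beta-tubulin Tubb3 was not detected at 167 and 129.

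Energy and redox genes were detected almost throughout. Of 17 named glycolytic genes 16 were detected, against 44.1% of all genes. Pkm, the pyruvate kinase, read 48173 and 61146, Ldha, which makes lactate, read 44048 and 48537, and the glucose transporter Slc2a1 read 13170 and 13989. Aldoc, the aldolase form of brain, was the 1 member not detected. Respiratory chain and ATP synthase genes were detected for 64 of 74, led by the catalytic subunit Atp5b at 66403 and 68214. Mitochondrial ribosomal proteins were detected for 71 of 75. All 18 iron and redox genes were detected. Fth1, the ferritin heavy chain that stores iron, read 68361 and 66212, and the glutathione peroxidase Gpx1 read 43720 and 44632. The proteasome list gave 29 of 39, among them Psma2 at 43202 and 39670, with Psma1, Psma3 and Psma6 undetected on every array.

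Set against this, the list of basal keratinocyte markers was mostly at background. It had 3 of 14 named members detected (21.4%), against 44.1% of all genes. Without HF replicate 1 it had 6 of 14, against 47.0% of all genes. Krt5 read 124 on replicate 1 and 84.5 on replicate 2, Krt14 read 118 and 88.5, and Trp63 read 129 and 92.2. All 3 lie within the range of undetected probes, and none was detected on any of the 6 arrays, so these data do not show that the probes can respond. The 3 detected members were dim. Lamb3, a laminin chain of the epidermal basement membrane, read 358 and 826, Dst, a linker of hemidesmosomes, read 547 and 144, and Itga6, their integrin partner, read 211 and 167. In bulk samples fewer cells of a type and less RNA per cell cannot be told apart, here or in any list that follows. The defining keratinocyte markers of a hair follicle were thus not detected on the arrays that carry that label, and the cells are called HF cells below only because the labels name them so.

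Keratins as a family gave the same picture. Of 49 named keratin genes 4 were detected (8.16%), against 44.1% of all genes. Krt10, a keratin of the suprabasal epidermis, read 1325 on replicate 1 and 797 on replicate 2 and ranked 4370. Krt80, Krt13 and Krt7 stayed under 300 on both arrays. At a detection p-value under 0.01 only Krt10 remained of the 4. Of the undetected keratins 11 had a probe detected on another array and 33 were read on none. Among all 10647 genes not detected on both HF arrays 3574 had a probe detected on another array. Differentiating epidermis gave 3 of 13 markers, with Krt1 at 151 and 103 and the cornified envelope protein Ivl at 149 and 92.4. Simple epithelium gave 2 of 10. Krt8 read 178 and 125, and its probe was detected on all 4 other arrays. Epcam, a surface protein of epithelia, was not detected on any array, and the epithelial cadherin Cdh1 read 179 and 161, which passed on replicate 2 alone.

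The hair-producing programme was also at background. None of 42 keratin-associated protein genes, the cross-linkers of the hair shaft, was detected on the HF arrays, and 40 of them were detected on no array. Of 18 hair matrix and shaft markers 3 were detected (16.7%), against 44.1% of all genes. They were the regulators Msx1 at 1195 and 1110, Gata3 at 569 and 558 and Trps1 at 1083 and 212, all of which act in other tissues as well. The inner root sheath keratins Krt25, Krt27 and Krt28 and the shaft regulator Hoxc13 were not detected. Lef1, the Wnt effector of the matrix, read 130 and 90.8.

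Of the markers linked to bulge stem cells 9 of 17 were detected (52.9%), near the 44.1% of all genes. Lrig1, an inhibitor of epidermal growth factor receptors that marks the upper follicle, read 5582 on replicate 1 and 5475 on replicate 2. Sox9, a transcription factor of bulge and outer root sheath, read 2969 and 3030. Foxc1, a forkhead factor, read 1703 and 1329, and Nfib read 2023 and 660. Tcf7l1 read 1942 and 823. Lgr6 (554 and 844), Runx1 (560 and 271) and Nfatc1 (482 and 426), named after their values were seen, were detected as well. The bulge markers introduced at the outset were at or near background. Krt15 read 169 and 135, Lgr5 read 113 and 88.6, and Cd34, which was detected, read 196 and 235. With Krt15 and Lgr5, 8 members were detected on neither HF array. Sebocyte markers were detected for 3 of 9. Scd1, the desaturase of sebaceous lipids and of many other cells, read 8318 and 4581, while Mc5r and Awat2, which are more specific to the gland, were not detected.

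**Figure D2:**
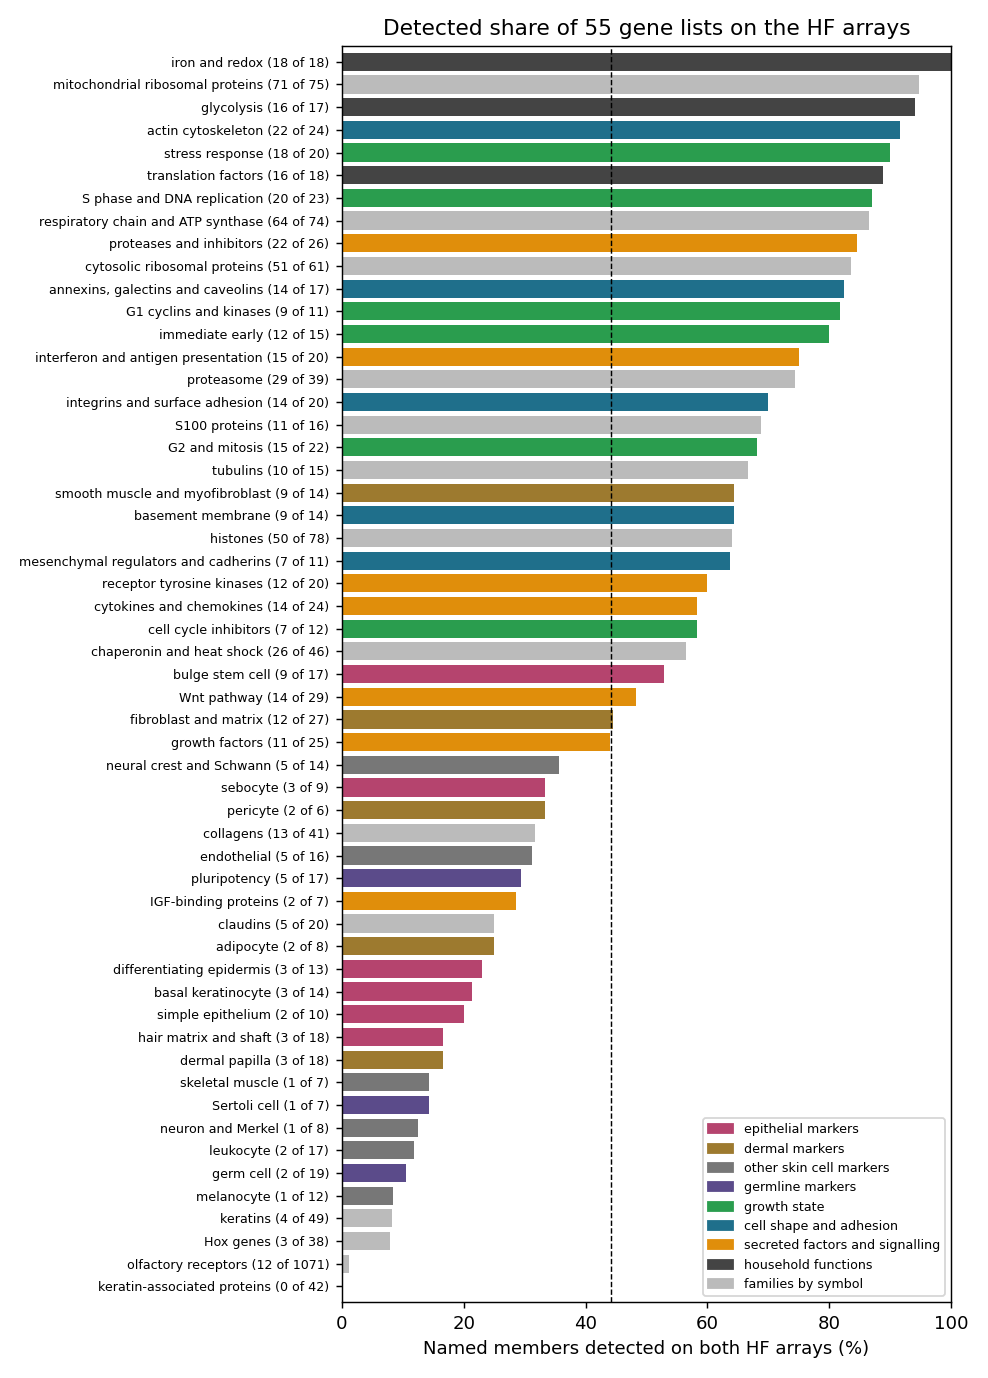
Bars give the percent of named members detected on both HF arrays for each of 55 gene lists, coloured by class, with the counts in the labels, and the dashed line marks the 44.1% of all named genes that were detected. Household, cytoskeletal and cell cycle lists lie to the right of the line, while the keratinocyte, hair shaft, leukocyte, melanocyte and germ cell lists lie to the left of it.

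Mesenchymal structural genes were bright, though the fibroblast list as a whole was detected in 12 of 27, close to the share of all genes. Vim, the intermediate filament of mesenchymal cells and of many cultured cells, read 25260 on replicate 1 and 25208 on replicate 2. Sparc, a collagen-binding matrix protein, read 19594 and 25358. Col5a1, a fibrillar collagen chain, read 14909 and 15902, and Col1a1, the main chain of dermal collagen, read 8622 and 7329. These 4 were among the 1000 brightest genes. The mesenchymal transcription factors Twist2 (3967 and 4303) and Twist1 (2395 and 2441) were detected as well. Col1a2, the partner chain of Col1a1, read 124 and 99.3, and its probe was detected on 3 of the 4 other arrays. Col5a2, Col6a1 and Col6a2 were not detected either, nor were the fibroblast surface marker Thy1 and the proteoglycans Dcn and Lum of dermal fibroblasts, the last 3 named after their values were seen. Dcn read 132 and 82.0, and its probe was detected on all 4 other arrays. Over the collagen family 13 of 41 were detected (31.7%), against 44.1% of all genes. With the first probe by identifier in place of the brightest 8 of 41 were detected, against 33.4% of all genes. Col18a1 of basement membranes led the family at 27152 and 28279.

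Dermal papilla markers were detected for 3 of 18 (16.7%), against 44.1% of all genes. Ncam1, an adhesion molecule of papilla and nerve, read 1180 and 305, Wnt5a read 363 and 359, and the phosphatase Alpl, the classical stain of the papilla, read 192 and 178. Sox2, Corin and the proteoglycan Vcan were not detected on any array. Smooth muscle and myofibroblast genes reached 9 of 14 (64.3%). With the first probe by identifier they reached 4 of 14, against 33.4% of all genes. Tpm1, a tropomyosin made in most cells with actin bundles, read 30458 and 25763, and Smtn, which binds actin filaments of smooth muscle, read 5902 and 8371. The contractile markers Tagln (133 and 80.9), Cnn1 (130 and 94.9) and Myh11 (112 and 92.5) were not detected, and Acta2, the smooth muscle actin, read 254 and 357. Pericyte and adipocyte markers gave 2 of 6 (33.3%) and 2 of 8 (25%), against 44.1% of all genes. The detected pericyte members were Mcam at 221 and 347 and Kcnj8 at 199 and 160, while Rgs5 was not detected. The detected adipocyte members were Lpl at 570 and 269 and Pparg at 263 and 355, while Adipoq and Fabp4 were not detected.

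Promoter sequence is shown for 4 genes chosen after values were seen, as examples that do not stand for their groups. They are Vim of the bright mesenchymal genes, Plk1 of the mitotic genes described below, and the undetected keratinocyte pair Krt5 and Krt14. Each line gives the 150 bases before the RefSeq transcript start (build GRCm38.p6), 5′ to 3′ on the gene's strand, with CG dinucleotides in capitals. Vim lies at chr2:13574161-13574310 on the plus strand, Plk1 at chr7:122159285-122159434 on the plus strand, Krt5 at chr15:101712906-101713055 on the minus strand and Krt14 at chr11:100206031-100206180 on the minus strand.
Vim: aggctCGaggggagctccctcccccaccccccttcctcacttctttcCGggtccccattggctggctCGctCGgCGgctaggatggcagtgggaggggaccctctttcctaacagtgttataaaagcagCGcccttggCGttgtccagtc
Plk1: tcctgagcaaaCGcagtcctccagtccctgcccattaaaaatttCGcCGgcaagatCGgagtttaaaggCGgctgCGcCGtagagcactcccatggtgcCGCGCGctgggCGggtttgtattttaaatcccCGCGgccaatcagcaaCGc
Krt5: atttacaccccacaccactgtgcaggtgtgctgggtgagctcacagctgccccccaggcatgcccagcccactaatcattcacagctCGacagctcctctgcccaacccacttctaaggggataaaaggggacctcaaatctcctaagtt
Krt14: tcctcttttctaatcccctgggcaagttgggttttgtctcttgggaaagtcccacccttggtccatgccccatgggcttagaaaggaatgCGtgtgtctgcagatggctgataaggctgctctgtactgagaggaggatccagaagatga
The Plk1 stretch holds 14 CG dinucleotides and that of Vim 7, while those of Krt5 and Krt14 hold 1 each. The letters TATAAA stand 40 to 25 bases before the start in the Vim promoter and in none of the other 3.

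Over wider windows of 250 bases before to 50 after the start, a promoter was called CpG-rich when its CG count was over 0.6 of that expected from its C and G content. Of the 4 printed genes only Plk1 (1.00) was CpG-rich, and Vim (0.421) was not, like Krt5 (0.251) and Krt14 (0.286). Of the 82 promoters found for the 100 brightest genes 79.3% were CpG-rich, and of the 741 found for the next ranks down to 1000 83.9% were. The 6089 promoters of the other detected genes gave 76.1%, close to both values. All named genes on the array gave 52.2%, and all 27025 promoters in the table, which include genes not on the array, gave 36.4%. Ribosomal protein promoters reached 88% of 50. Olfactory receptor promoters gave 0.551% of 907, and none of 38 keratin-associated promoters was CpG-rich. The letters TATAAA, searched on the gene's strand and starting 40 to 25 bases before the start, were present in 63.2% of keratin-associated promoters, in 3.66% of those of the 100 brightest genes and in 2.13% of all. The letters GGGCGG, searched on both strands, were found in 69.5% of the promoters of the 100 brightest genes, in 67.4% of those of the other detected genes and in 35.9% of all in the table. Fewer than 80% of the undetected genes (78.2%), the keratins (69.4%), the fibroblast list (63%) and the mitotic list (77.3%) could be matched to a promoter, so the check is void for these groups. All named genes, at 79.95%, fell just short as well, so their values are given for scale only. A match of letters is a description of sequence and not a binding site.

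Cell shape and adhesion genes were detected widely. Of 24 actin cytoskeleton genes 22 were detected (91.7%), against 44.1% of all genes. Actb, the cytoplasmic actin, read 62505 on replicate 1 and 63860 on replicate 2, and Zyx, a protein of focal adhesions and stress fibres, read 62222 and 60001. Anxa2, which links membrane to actin, read 63131 and 62549, the galectin Lgals1 read 63820 and 64496, and the annexin, galectin and caveolin list gave 14 of 17. The calcium-binding protein S100a11 read 65738 and 64429. Tln1 and Rdx, which couple actin to adhesion sites and to membrane, were the 2 actin genes not detected, and neither probe was detected on any array.

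Surface adhesion molecules and basement membrane genes completed this group. Of 20 integrins and surface adhesion molecules 14 were detected (70%), against 44.1% of all genes. The tetraspanins Cd63 at 41758 and 46664, Cd151 at 34594 and 36620 and Cd81 at 37798 and 32782 led them. Itga3, the integrin that binds laminin, read 11127 and 11191, and the hyaluronan receptor Cd44 read 7693 and 8366; both were named after their values were seen. Basement membrane genes gave 9 of 14 (64.3%). Col4a1, the main collagen of basement membranes, read 22733 and 25838, and the proteoglycan Hspg2 read 13630 and 17973. Among regulators of mesenchymal state and cadherins 7 of 11 were detected (63.6%). With the first probe by identifier 4 of 11 were detected, against 33.4% of all genes. Zeb2 read 1861 and 447, Snai1 read 1155 and 1315, and Cdh2, the cadherin of mesenchyme and nerve, read 231 and 199.

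By the main rule each list of other skin cell types had a smaller share detected than all genes, with a few exceptions in each. Endothelial markers were detected for 5 of 16 (31.25%), against 44.1% of all genes. Without HF replicate 1 they were detected for 8 of 16, near the 47.0% of all genes in that setting. Egfl7, a secreted protein of vessels, read 6482 and 7221 and the transforming growth factor co-receptor Eng read 4329 and 4091. Flt1 read 1316 and 464 and Plvap read 850 and 847. Cdh5, named after its values were seen, was detected near the threshold at 202 and 153. Pecam1 (146 and 112) was detected on neither HF array, and Kdr (168 and 141) and Tek (184 and 139) passed on replicate 2 alone. Leukocyte markers gave 2 of 17: the endotoxin co-receptor Cd14 at 1888 and 2263, and Coro1a near the threshold at 204 and 139. Ptprc, the pan-leukocyte surface protein also called CD45, read 121 and 95.2 and was detected on no array. The summed intensity of the 17 leukocyte genes was 3979 on replicate 1 and 3815 on replicate 2, of which Cd14 supplied the largest share.

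Pigment and nerve lists also had smaller shares detected than all genes, though to different degrees. Of 12 melanocyte markers 3 were detected without HF replicate 1, where all genes gave 47.0%, and 1 by the main rule (8.33%). That gene, Gpnmb, a lysosomal glycoprotein of melanosomes that macrophages and other cells also make, read 11055 and 11325. The pigment enzymes Tyr (101 and 76.7), Tyrp1 (134 and 88.5) and Dct (119 and 98.7) were not detected. Neural crest and Schwann markers gave 5 of 14 (35.7%), against 44.1% of all genes. Tfap2a, a transcription factor of neural crest and of surface ectoderm, read 6986 and 4245, and its paralogue Tfap2b read 3645 and 1560, while Sox10, which defines crest-derived glia and melanocytes, read 107 and 92.1 and was detected on all 4 other arrays. Neuron and Merkel cell markers gave 1 of 8 and skeletal muscle markers 1 of 7, each with its detected member under 230 on both arrays.

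**Figure D3:**
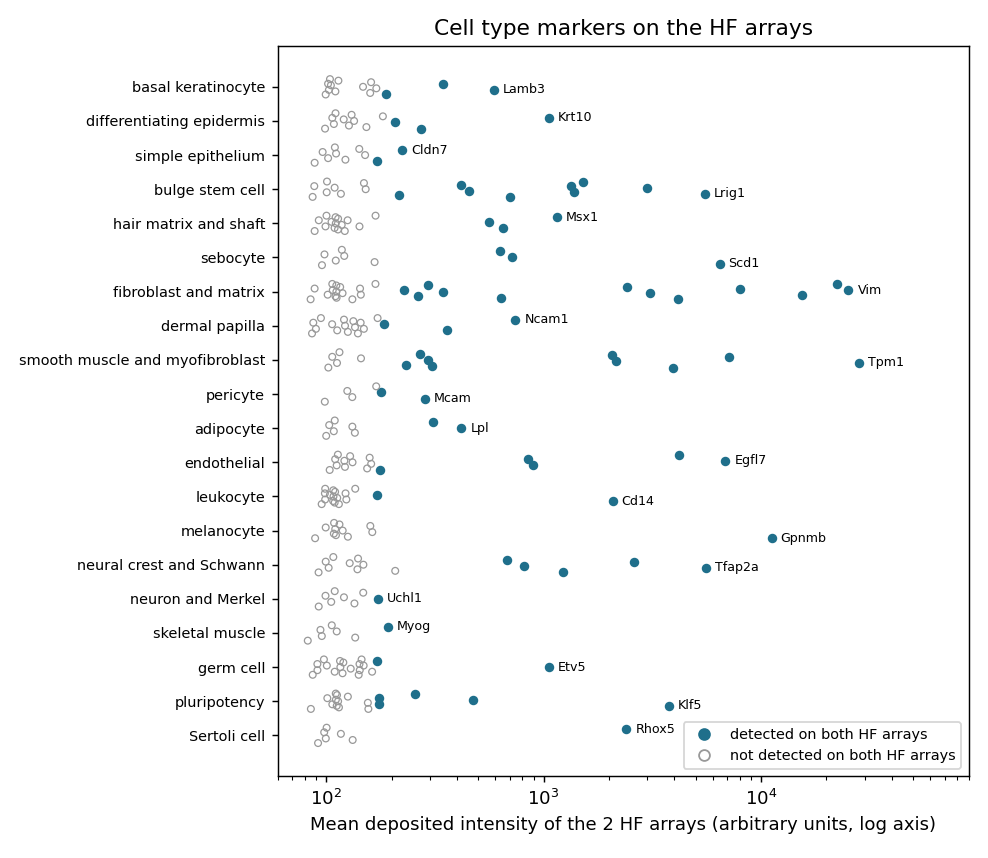
Each circle is a marker gene at its mean deposited intensity over the 2 HF arrays (arbitrary units, log axis), arranged by cell type, filled when detected on both HF arrays and open when not, with the brightest detected member named. Most open circles lie under 200 in every list, and filled circles above 10000 belong to the fibroblast, smooth muscle and melanocyte lists.

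Germline and pluripotency markers were read because the study compares these cells with germline stem cells. Germ cell markers were detected for 2 of 19 (10.5%), against 44.1% of all genes. Of the 17 others 16 had a probe detected on at least 1 of the other 4 arrays. Among all 10647 genes not detected on both HF arrays 3574 had such a probe. The RNA helicase Ddx4 read 151 and 134 and the RNA-binding protein Dazl 117 and 102. Etv5, a transcription factor of spermatogonial self-renewal and of many growth factor responses, read 681 and 1436. Pluripotency genes gave 5 of 17 (29.4%), and 2 of 17 at a detection p-value under 0.01, where all genes gave 39.7%. Klf5, which also acts in epithelia, read 3279 and 4278. Pou5f1, whose regulatory sequence drives the OG2 transgene, passed the rule at 202 and 149 with a rank of 8296 of 8410, and Nanog was not detected. Of the Sertoli cell markers 1 of 7 was detected, Rhox5, a homeobox gene of the X chromosome, at 2732 and 2076.

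The HF cells expressed genes of each step of cell division. Among G1 cyclins and kinases 9 of 11 were detected (81.8%), against 44.1% of all genes. Ccnd1, the cyclin that responds to growth factors, read 23920 on replicate 1 and 33162 on replicate 2, and its partner kinase Cdk4 read 7831 and 9497. Of 23 S phase genes 20 were detected (87.0%). They included the replicative helicase subunits Mcm5 at 15081 and 12591 and Mcm4 at 16589 and 8167. The thymidine kinase Tk1 read 10502 and 9845. Of 22 G2 and mitosis genes 15 were detected (68.2%). Cenpa, the centromeric histone, read 36161 and 33205. The mitotic kinase Plk1 read 15989 and 14408, Cdc20, which activates the anaphase-promoting complex, read 12700 and 14729, and the survivin gene Birc5 read 8723 and 9969.

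The gaps in these lists were of different kinds. Pcna, the sliding clamp of replication, read 491 on replicate 1 and 133 on replicate 2 and passed on replicate 1 alone. The cyclins Ccna2 and Ccnb2 and the checkpoint kinase Bub1 were detected on none of the 6 arrays, including those of the germline stem cells. Several mitotic genes were dimmer on replicate 2: Top2a, the topoisomerase that untangles chromosomes, read 1959 and 448, and the spindle protein Tpx2 read 1084 and 178, both named after their values were seen. These lie on the same branch as Kpnb1, and whether array quality had a part in their values was not tested.

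Inhibitors of the cycle were detected for 7 of 12 (58.3%), against 44.1% of all genes. Btg1, which slows proliferation, read 11381 and 11113, and Cdkn1a, the p21 gene induced by p53 and by stress, read 10683 and 6410. The INK4 family gene Cdkn2c read 4911 and 3093. Cdkn2a (148 and 138) and Cdkn2b (114 and 85.3), which are markers of senescent cells, and the imprinted gene Cdkn1c (106 and 81.7) were not detected, while all 3 had a probe detected on all 4 other arrays. Stress genes were detected for 18 of 20. The metal-binding protein Mt1 read 67352 and 61888, the autophagy receptor Sqstm1 read 21794 and 21653, and Atf4, which drives the amino acid response, read 15501 and 11199. Immediate early genes gave 12 of 15, led by Ier3 at 19253 and 32982 and the phosphatase Dusp1 at 15422 and 15192, while Fos, the classical member, read 503 and 216 and was named after its values were seen.

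**Figure D4:**
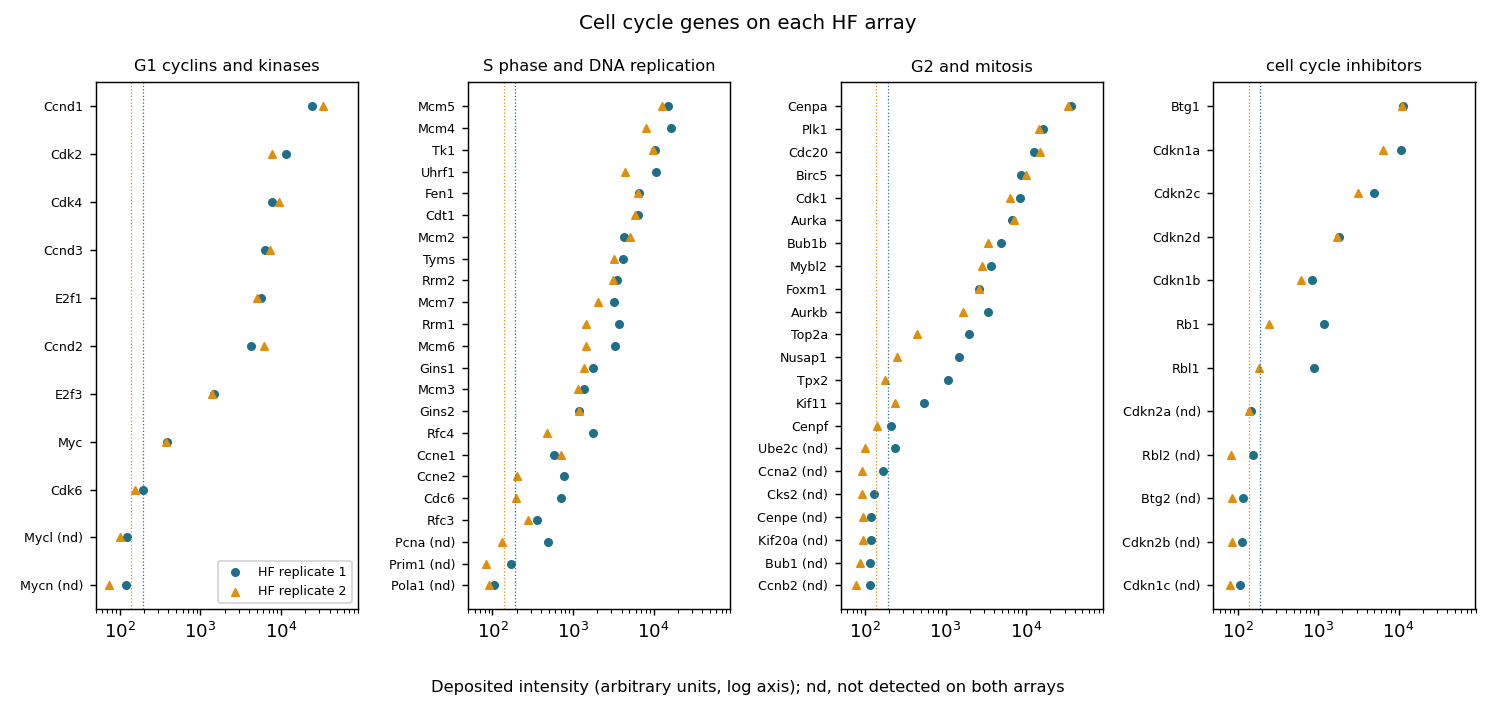
Members of 4 cell cycle lists are shown at their deposited intensity on HF replicate 1 (circles) and HF replicate 2 (triangles), in arbitrary units on a log axis, with "nd" marking genes not detected on both arrays and dotted lines at the lowest detected intensity of each array. Ccnd1, Mcm5, Cenpa and Btg1 lead their lists, and Top2a, Nusap1, Tpx2, Rb1 and Rbl1 are among the genes with lower values on replicate 2.

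Proteases and inhibitors, a list that also holds proteins that are not secreted, were detected for 22 of 26 (84.6%). Serpinh1, the collagen chaperone of the endoplasmic reticulum, read 53478 on replicate 1 and 61909 on replicate 2 and ranked 46. The protease inhibitor Timp1 read 18192 and 22332, the cathepsin Ctsb read 23770 and 14320, and the cystatin Cst3 read 19190 and 16612. The collagenase Mmp14 at the cell surface read 17420 and 15008 and the gelatinase Mmp2 read 8415 and 12120, both named after their values were seen. Cytokines and chemokines gave 14 of 24 (58.3%), against 44.1% of all genes. Mif, a cytokine made by most cells, read 68118 and 66836, Il24 read 2982 and 4117, and the monocyte attractant Ccl2 read 2297 and 1940, while Il1a, Il1b and Il6 were detected on none of the 6 arrays. Growth factors gave 11 of 25, the share of all genes, and 7 of 25 with the first probe by identifier, where all genes gave 33.4%. Pdgfa, a mitogen for mesenchymal cells, read 4746 and 6523. Of the insulin-like growth factor binding proteins 2 of 7 were detected, Igfbp7 at 12824 and 10269 and Igfbp4 at 325 and 208.

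Among receptors and pathways, receptor tyrosine kinases were detected for 12 of 20 (60%), against 44.1% of all genes. Axl, the receptor for Gas6, read 39517 on replicate 1 and 42013 on replicate 2 and ranked 92, and Igf1r read 3067 and 1559. Pdgfra, a fibroblast receptor, read 187 and 150 and Met, the hepatocyte growth factor receptor, read 227 and 116, and each passed on 1 array alone. Wnt pathway genes gave 14 of 29 (48.3%), near the 44.1% of all genes. With the first probe by identifier they gave 8 of 29, against 33.4% of all genes. Ctnnb1, the beta-catenin gene, read 7549 and 1724, Wls, which escorts Wnt ligands to the surface, read 6280 and 4368, and Axin2, the common target gene of the pathway, read 125 and 95.3 with its probe detected on all 4 other arrays. Interferon and antigen presentation genes gave 15 of 20, led by B2m of the class I complex at 30607 and 33448 and the antiviral membrane protein Ifitm3 at 25723 and 33760. Hox genes, which mark position along the body, were detected for 3 of 38 (7.89%). At a detection p-value under 0.01, where all genes gave 39.7%, 1 of 38 was detected. The 3 were Hoxa13 at 294 and 292, Hoxb4 at 259 and 163 and Hoxc10 at 198 and 146. Of the 35 others, 16 had a probe detected on another array, against 3574 of all 10647 genes not detected on both HF arrays.

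Grouping all genes by the letters that open their symbol gave 95 roots with at least 20 named genes, a grouping made after the values were seen. The share detected ran over 80% for 11 roots, led by the mitochondrial ribosomal roots Mrps (27 of 28) and Mrpl (45 of 48), followed by adaptor proteins (Ap, 24 of 27) and Mediator subunits (Med, 26 of 30). No gene was detected for 6 roots, which are the keratin-associated proteins (Krtap, 42 genes), taste receptors (Tas, 35), kallikreins (Klk, 24), fibroblast growth factors (Fgf, 22), alpha-1-antitrypsin-like serpins (Serpina, 21) and glucuronosyltransferases (Ugt, 21). Vomeronasal receptors (Vmn) gave 2 of 171, beta-defensins (Defb) 1 of 42 and cytochromes P450 (Cyp) 7 of 87. The roots with a high share are mainly those of machinery that every cell runs, and most of those with a low share are known from sense organs, liver, glands or skin surface.

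**Figure D5:**
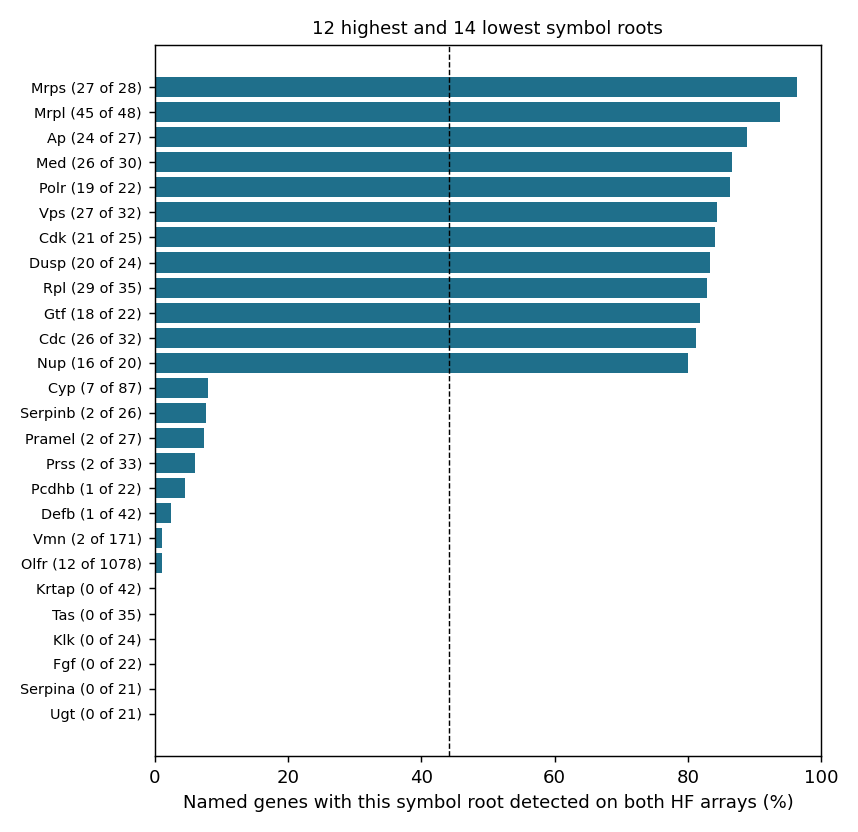
Bars give the percent of named genes detected on both HF arrays for the 12 symbol roots with the highest share and the 14 with the lowest, with counts in the labels and a dashed line at the 44.1% of all named genes. Mrps and Mrpl stand at the top, and Krtap, Tas, Klk, Fgf, Serpina and Ugt have no detected gene.

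Most of the profile was also read elsewhere in the series. The probe that stood for the gene was detected on all 4 other arrays for 7672 detected genes (91.2%), for all of the 100 brightest and for 997 of the 1000 brightest. Conversely, of the 10647 genes not detected on both HF arrays 3574 had a probe detected on some other array and 7073 on none. At the threshold itself Nova2 (191.1 and 138.8), a neuronal splicing factor, was just inside, and Amt (193.9 and 138.1), an enzyme of glycine breakdown, was just outside.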

How the data were processed

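Biotinylated cRNA made from total RNA was read on Illumina mouse bead arrays, per the labels' protocols. The authors deposited a non-normalized table of intensity values on a linear scale with a detection p-value per probe and array, and a normalized table of log2 values that served as an alternative. GenomeStudio 2011.1 and R 3.0.2 are named in the submitters' processing notes. No genome build is given in the sources used here. All deposited columns of values were mapped to samples.

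Of 45281 probes 34885 had 1 gene symbol, 18 several and 10378 none, and 34807 matched a RefSeq gene (assembly GRCm38.p6) without a change of symbol. Unnamed probes made up 2103 of the 14794 detected on both HF arrays and were left out. The arrays detected 9081 and 8950 genes and averaged 1149 and 1043 in intensity. The number of arrays limits the precision. Calls and ranks used Python 3.11.15 and pandas 2.3.3, and neqc in limma 3.58.1 (R 4.3.3) gave another normalization with an offset of 16. The calling code was tested on simulated data. No test was run, since 1 group is described.

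The 55 gene lists and the members were chosen with earlier results of these data known, and the pattern for histones was adapted to current symbols after the files were read. Of 706 written genes 664 were named on the array. Genes were named in the text by a rule: the 40 brightest, up to 4 brightest detected and the first 4 undetected members of each list, the 5 largest differences between the HF arrays each way in the brighter part of the profile, and 3 genes on each side of the threshold. Genes outside this rule (among them Slc2a1, Epcam, Hoxc13, Cd34, Nfib, Acta2, Cdh2 and Sox10), the symbol roots, the promoter groups and the 4 promoters printed were chosen after values were seen.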

Additional observations from a re-analysis of the deposited data

How the results depend on the processing

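No paired analysis was possible because no groups were compared and no test was run. The number of detected genes was 8410 and stayed within 1.5 times of that under every alternative: 7561 at a detection p-value under 0.01, 7695 with Benjamini-Hochberg adjusted detection p-values, 9602 on at least 1 HF array, 6367 with the first probe by identifier, and 8950 to 9081 when 1 HF array was left out. The lists with a detected share above that of all genes numbered 30 of 55, and 27 to 33 under those alternatives. Of the 100 brightest genes 95 remained when either HF array was left out, 97 by the lower of the 2 arrays and 68 with the first probe by identifier, and all 100 remained with neqc and with the authors' normalized values. For neqc this outcome was largely fixed in advance, since it keeps the order of probes within each array. Single lists moved more. Over 1.5-fold changes in the count were seen for 10 lists at a detection p-value under 0.01, 9 with adjusted p-values, 6 on at least 1 array, 11 with the first probe, 4 without replicate 1 and 1 without replicate 2. With the first probe, where all genes gave 33.4%, neural crest markers gave 3 in place of 5 and pluripotency genes 3 in place of 5. With at least 1 array, where all genes gave 50.4%, keratins gave 7 in place of 4 and dermal papilla markers 5 in place of 3. The causes were not tested. Low signal over background limits every list whose detected members lie near the threshold, and 3473 of the 5233 detected genes with several probes also had an undetected probe.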

Other observations

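For 145 of the 8410 detected genes no probe was detected on any of the other 4 arrays. By the probe that stood for the gene alone, 167 genes (1.99%) were detected on none of them, so such genes are a small share. This describes detection and was not tested as a difference. The examples were chosen after their values were seen. St3gal6, a sialyltransferase that builds cell surface glycans, read 8843 on HF replicate 1 and 4599 on HF replicate 2. Tinagl1, a secreted matrix protein, read 4503 and 6900. Pcdh17, a protocadherin, read 6959 and 1770, and thus was dimmer on replicate 2. The transcription factor Scx, which acts in tendon, read 2944 and 1749, and the transcription factor Gata6 read 2256 and 2156. Sprr2k, a cornified envelope protein, read 730 and 772, the psoriasin gene S100a7a read 432 and 610, and the plasminogen activator inhibitor Serpinb2 read 2144 and 1505. Adh7, an alcohol dehydrogenase of upper digestive epithelia, read 1733 and 4368.

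Transcripts of the mitochondrial genome were also measured, for 8 named genes of which 6 were detected. The cytochrome b gene CYTB ranked 41 and the complex I gene ND4 ranked 81 by brightness. Pdpn, a mucin-like surface protein of lymphatic vessels, fibroblasts and basal keratinocytes, ranked 103, and Mfge8, a secreted protein that tags dying cells for uptake, ranked 55.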
